A study of Mus musculus with 6 samples.

Results

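The cluster of mmu-miR-183, mmu-miR-96 and mmu-miR-182 is a set of 3 mouse microRNAs (miRNAs), written below without the species prefix. They were read on 6 one-colour arrays of MCT cells, an established mouse renal tubular cell line of SJL H-2S background. The members were found by name among the 611 mouse miRNA entries of the array, leaving out star forms, and 3 of 3 were listed. The control group was 3 arrays of MCT cells without added cytokine, and the TGFbeta group was 3 arrays of the same line given transforming growth factor beta at 3 ng/ml for 72 hours. No time is given for the control arrays. Both groups share the line and, per the labels' protocols, growth in 10% fetal calf serum with a change to 0.5% serum before the cytokine was added. A single line was used. The labels do not state whether replicates were separate cultures, so the p-values cover the spread of these 6 samples, and that spread can be technical.

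The 3 miRNAs are processed from 1 polycistronic transcript. In the RefSeq gene table their hairpin genes Mir183, Mir96 and Mir182 lie side by side, in that order of transcription, within the long noncoding RNA gene Mirc35hg, with no other gene between them. The cluster is best known from sensory organs, where it is abundant in hair cells and photoreceptors, and mutations in the seed of miR-96 cause progressive hearing loss in mice and humans. It is also made in other epithelia and in tumours, where miR-182 and miR-96 repress FOXO transcription factors. A miRNA recognises its targets mainly through its seed, bases 2 to 8 from the 5′ end, and TGFbeta is the main profibrotic cytokine of the kidney, under which tubular cells lose epithelial traits.

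The mature sequences show how close the 3 miRNAs are to each other, which bears on whether they share targets and on how their probes can be told apart. They are RefSeq's (GRCm38.p6), 5′ to 3′, with the seed in capitals, for the arm that the array lists without a star.
miR-183-5p: uAUGGCACugguagaauucacu
miR-96-5p: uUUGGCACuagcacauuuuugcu
miR-182-5p: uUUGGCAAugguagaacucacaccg
Counted from the 5′ end, the seed of miR-96 differs from that of miR-182 by C8A and from that of miR-183 by A2U, written from miR-183 to miR-96. The seeds of miR-183 and miR-182 differ at both places, A2U and C8A. Over the whole length, seed included, the order of likeness is another one. Position by position, miR-183 and miR-182 were identical at 18 of 22 bases, miR-183 and miR-96 at 13 of 22, and miR-96 and miR-182 at 12 of 23. The longest run shared by miR-183 and miR-182 was UGGUAGAA, which starts at base 9 of both. Of 1679 mature mouse entries in the RefSeq table, 1 other, miR-1271-5p, holds the seed of miR-96, and none holds that of miR-183 or miR-182. miR-1271 is not among the 611 entries of the array, and of the opposite arms only miR-183* (RefSeq's miR-183-3p) is.
miR-1271-5p: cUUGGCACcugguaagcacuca
miR-183-3p: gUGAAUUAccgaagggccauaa

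Each member was read by 2 probes with 10 spots each per array. The scanner software marks each spot that is well above background, and a probe needed that mark on at least 0.5 of its spots. All 3 members were well above background on 6 of 6 arrays, but their probes did not contribute alike. Both probes of miR-96 had 60 of 60 spots flagged over the 6 arrays. The brighter probe of miR-183 had 60 of 60 and its dimmer probe 45 of 60. For miR-182 the brighter probe had 60 of 60 and the other 1 of 60, and no used spot of the latter exceeded the highest negative control spot of its array, which lay between 17.9 and 21.9 intensity units. The level of miR-182 therefore rests on 1 probe, and averaging both probes lowers its printed signal. The guide arm of miR-183 was measured and its opposite arm was not: miR-183* was well above background on 0 of 6 arrays, and 1 of its 120 spots was flagged.

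**Figure D1:**
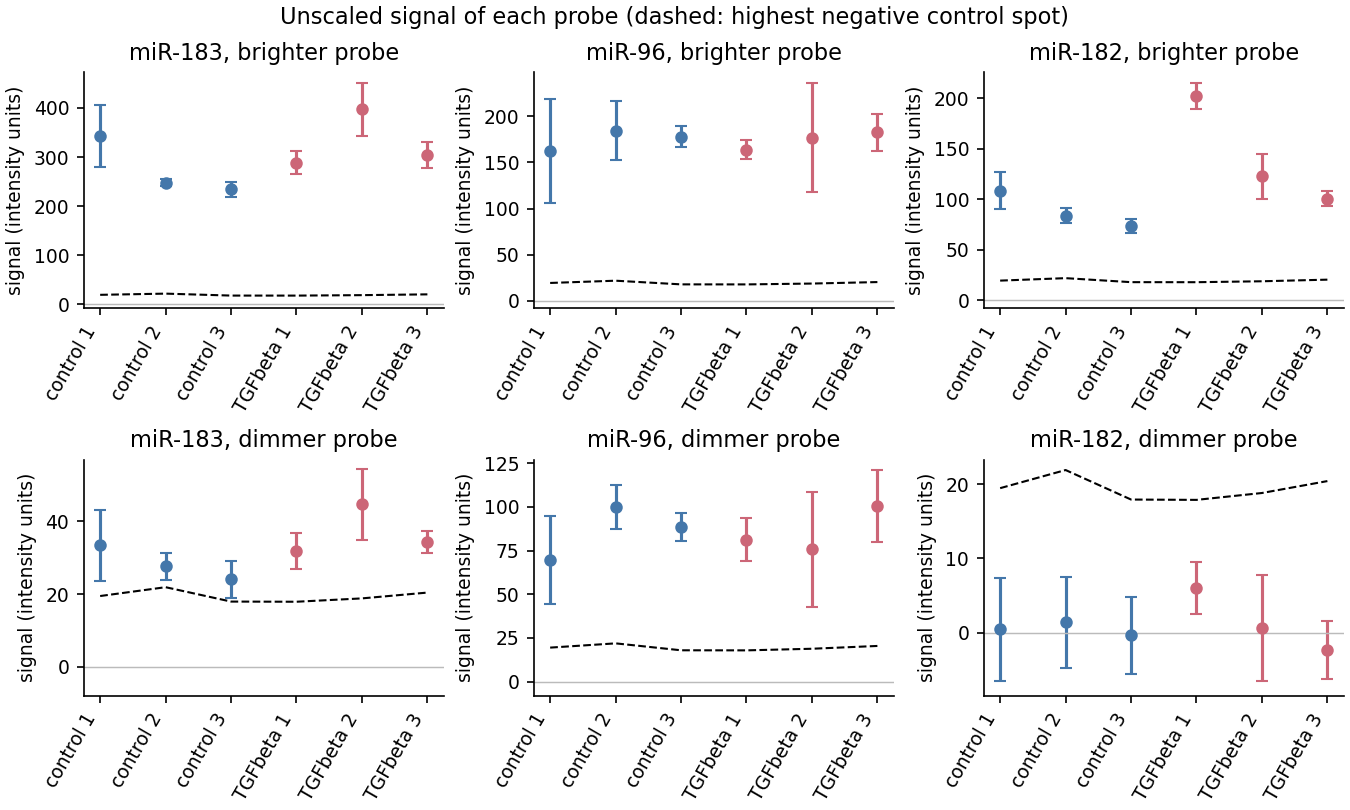
Unscaled signal of the brighter and dimmer probe of each miRNA on the 6 arrays, in intensity units on linear axes (points, mean over the used spots of a probe; bars, SD over spots; blue, control; red, TGFbeta). The dashed line is the highest negative control spot of each array; the dimmer miR-182 probe stays below it on every array and the 3 brighter probes lie above it on every array.

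The arrays differ in ways the groups do not explain. Taking the median of absolute log2 differences across the 84 tested miRNAs, control 1 lay 0.48 and 0.52 from controls 2 and 3, which differed from each other by 0.058, and between 0.16 and 0.26 from the TGFbeta arrays. The 2 arrays in slide column 1, control 1 and TGFbeta 2, had the most uneven spots, with a median spot coefficient of variation (CV) of 14.0% and 13.0%, against at most 7.81% on the other 4. Signals below were scaled so that the 75th percentile over 105 probes well above background on all arrays is equal. Without scaling, the median log2 difference over the 84 miRNAs moved from -0.090 to 0.26, so changes are relative to that set of probes. By Pearson's r of log2 signal over the 84 miRNAs, TGFbeta 1 was the array most apart. Its r was 0.66 to 0.87 with the other arrays, against at least 0.898 in every other pair. The arrays gave 74 to 103 miRNAs well above background, the most on TGFbeta 1. Of the kidney tubule markers 4 of 8 were, all of the miR-30 and miR-10 families, whereas miR-192, miR-194, miR-215 and miR-204 were not, and none of 7 epithelial, 5 mesenchymal, 5 blood, 2 endothelial or 2 neural markers was on any array.

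None of the 3 members passed the test between the groups with all 6 arrays. Their directions differed: miR-183 was nearly level, miR-96 read lower with TGFbeta, and miR-182 read higher, the last through 1 array. In limma 0 of 84 tested miRNAs (0%) had an adjusted p under 0.05, and 8 (9.52%) had an unadjusted p under 0.05. With the replicate number as a block 1 miRNA passed (1.19%), which was not a member. Of the members 1 of 3 read higher, against 41.7% of the 84. The groups overlapped for 3 of 3 members, and did not overlap for 7 of 84 miRNAs on the higher side (8.33%) and 5 of 84 on the lower (5.95%).

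After scaling, miR-183, whose hairpin comes first in the transcript, varied least over the arrays. Its highest value was 1.25 times the lowest, against 1.70 for miR-96 and 1.97 for miR-182. Before scaling, miR-183 ran from 129 to 221 and miR-96 from 116 to 142, so this order depends on the scaling. The scaled signal of miR-183 was 169, 168 and 169 on controls 1 to 3, a mean of 168.6 ± 0.997 (SD, n = 3). On TGFbeta 1 to 3 it was 143, 179 and 163, a mean of 161.8 ± 18.1 (SD, n = 3). The scaled controls were nearly equal and lay inside the range of the TGFbeta arrays, so the groups overlapped. Before scaling the controls read 189, 138 and 129. For the brighter probe the SD over the scaled controls was 0.018 on the log2 scale, below its median spot SE of 0.038. The spots thus do not resolve so close an agreement. The log2 difference of miR-183 after scaling was -0.066 (SE 0.14, 95% interval -0.42 to 0.29, limma adjusted p = 0.783), a fold of 0.955. These bounds allow changes of either sign, and the sign turned without scaling (0.28) and with the software's total gene signal (0.075).

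miR-96, whose seed mutations cause deafness, separated control 1 from the other controls. Its scaled signal was 104 on control 1 and 173 and 174 on controls 2 and 3, a mean of 150.6 ± 40.1 (SD, n = 3). On TGFbeta 1 to 3 it was 109.5, 103 and 136, a mean of 116.1 ± 17.8 (SD, n = 3). Controls 2 and 3 were the highest arrays, and control 1 fell among the TGFbeta arrays at 0.600 times the mean of the other controls. The log2 difference was -0.35 (SE 0.25, 95% interval -0.97 to 0.28, limma adjusted p = 0.478), a fold of 0.786. Both probes gave the same size, -0.35 from the brighter and -0.34 from the dimmer.

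Without control 1, miR-96 was lower with TGFbeta by -0.60 on the log2 scale (SE 0.17, 95% interval -1.04 to -0.16, limma adjusted p = 0.0494), a fold of 0.660, and was the 1 member of 3 that passed. In that fit 31 of 85 miRNAs (36.5%) passed, 20 of them lower (23.5%), and its groups did not overlap, as was so for 38 of 85 miRNAs (44.7%) on the lower side. The adjusted p does not allow for the choice of the array left out. It also passed without control 1 with normexp background correction (35 of 85 miRNAs did, 41.2%) and with the brighter probe alone (34 of 85, 40.0%). With all 6 arrays it passed under array weights, where 45 of 84 passed (53.6%). Control 1 had the lowest weight there, 0.144, against 3.71 and 3.08 for controls 2 and 3. That fit is thus close to leaving control 1 out. After scaling, the brighter probe of miR-96 put 16 of 20 used spots of controls 2 and 3 above every one of the 39 spots of the other 4 arrays, and the dimmer probe 5 of 19 above 40. Controls 2 and 3 were already the highest arrays, and spots of 1 array are not replicates, so these counts restate the array values. The scale factors were 1.22 and 1.31 on controls 2 and 3 and 0.81 to 0.96 on the other arrays. Before scaling, the signal of miR-96 was 116, 142 and 133 on controls 1 to 3 and 122, 126 and 142 on TGFbeta 1 to 3, which shows no separation of the groups. Left unscaled, miR-96 differed by -0.0022 on the log2 scale over all 6 arrays and by -0.084 without control 1 (limma adjusted p = 0.663), where the median over all tested miRNAs was 0.43. The lower value of miR-96 is thus relative to the other miRNAs of the array and is not seen in its raw brightness. Its spots were also the most uneven in slide column 1, with a CV of 34.5% on control 1 and 33.4% on TGFbeta 2 for the brighter probe, against 6.24% to 17.4% on the other arrays; the part of this in the result was not tested.

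miR-182, the last hairpin of the transcript and the member read by 1 probe, stood out on TGFbeta 1 alone. Its scaled signal was 48.9, 51.8 and 48.0 on controls 1 to 3, a mean of 49.6 ± 1.96 (SD, n = 3). On TGFbeta 1 to 3 it was 93.3, 50.1 and 47.3, a mean of 63.6 ± 25.8 (SD, n = 3). TGFbeta 1 read 1.91 times the mean of TGFbeta 2 and 3, which lay among the controls, so the groups overlapped. The log2 difference was 0.29 (SE 0.28, 95% interval -0.41 to 0.98, limma adjusted p = 0.566), a fold of 1.22. Without TGFbeta 1 it was -0.025 (SE 0.15, 95% interval -0.40 to 0.35, limma adjusted p = 0.940). From the brighter probe alone these differences were 0.29 and -0.0035. With all 6 arrays it was 0.027 with normexp, 0.093 with quantile normalization and 0.63 without scaling.

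The reading on TGFbeta 1 did not come from a few spots. On that array 10 of 10 used spots of the brighter miR-182 probe, from 165.0 to 196, exceeded all 49 used spots of the other arrays, of which the highest was 121. It was also present before scaling, with 104 on TGFbeta 1 and 36.7 to 61.7 elsewhere. The other probe, at background, gave no second reading. The 3 miRNAs whose values were most correlated with those of miR-182 over the arrays were also highest on TGFbeta 1, which follows from how they were chosen, but by unlike amounts. On the log2 scale miR-29c read 5.55 on TGFbeta 1 and 4.95 to 5.17 on the other arrays. miR-1224 read 14.48 against 6.45 to 8.64, and miR-494 read 11.62 against 2.64 to 5.69. The lowest of these miR-494 readings, a mean over its probes, is a level below the highest negative control spot of every array. Its contrast may thus be in part against background. The part of what sets this array apart in the miR-182 reading was not tested.

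**Figure D2:**
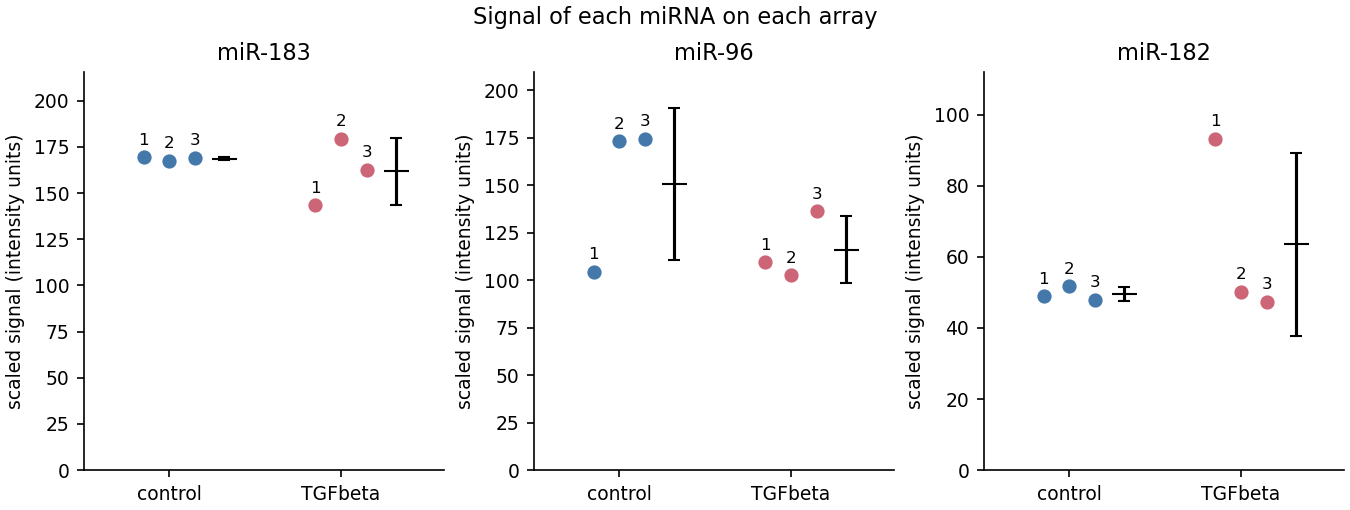
Scaled signal of each miRNA in intensity units on linear axes from 0 (points, arrays with their replicate number; black bars, mean ± SD of 3 arrays). Control 1 sits with the TGFbeta arrays for miR-96 (104 against 173 and 174), TGFbeta 1 sits apart for miR-182 (93.3), and the control arrays of miR-183 nearly coincide.

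All 6 arrays lay on 1 slide, whose position is a possible batch. Within column 1 (TGFbeta 2 minus control 1) the log2 difference was 0.083 for miR-183, -0.025 for miR-96 and 0.034 for miR-182. Within column 2 (TGFbeta 3 minus control 2) it was -0.044, -0.34 and -0.13 in the same order. miR-96 was lower in column 2 and about level in column 1. Within row 1 (TGFbeta 1 minus the mean of the 3 controls) the values were -0.23, -0.42 and 0.91, and row 2 holds TGFbeta arrays only. Each of these differences rests on 1 TGFbeta array.

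Since the 3 miRNAs come from 1 transcript, their ratios within an array ask whether they moved together. A ratio does not depend on the scaling between arrays, but it can depend on how spot signal and background are read. With normexp the log2 differences of miR-183, miR-96 and miR-182 were -0.090, -0.28 and 0.027. These lay closer together than -0.066, -0.35 and 0.29 in the main fit. The ratios were not computed with normexp. Each log2 ratio is given relative to its mean over the controls. miR-182 over miR-96 was 0.47, -0.18 and -0.30 on controls 1 to 3 and 1.33, 0.53 and 0.040 on TGFbeta 1 to 3. Controls 2 and 3 were the lowest, and 2 of 3 TGFbeta arrays exceeded every control. The change was 0.63 (fold 1.55, exact two-sided permutation p = 0.2, adjusted over 3 ratios 0.6), and it was 0.29 without TGFbeta 1. Between arrays of the same replicate number it was 0.86, 0.71 and 0.34 for numbers 1 to 3, so TGFbeta was higher in 3 of 3, and an exact two-sided test that swaps arrays within these pairs gave p = 0.25 (adjusted 0.75), the smallest that 3 pairs can give. miR-182 over miR-183 was within -0.073 and 0.073 on 5 arrays and 1.15 on TGFbeta 1, and its change of 0.35 (exact permutation p = 0.8, adjusted 0.8) was -0.043 without that array, 0.57 without TGFbeta 2 and 0.54 without TGFbeta 3. Between same-numbered arrays it was 1.17, -0.15 and 0.036. miR-183 over miR-96 was 0.50, -0.25 and -0.25 on controls 1 to 3 and 0.19, 0.61 and 0.052 on TGFbeta 1 to 3, a change of 0.28 (exact permutation p = 0.5, adjusted 0.75). This change was 0.53 without control 1, 0.16 without control 2 or control 3, and 0.12 without TGFbeta 2. Between same-numbered arrays it was -0.31, 0.85 and 0.30. An unpaired exact permutation test of 3 against 3 arrays cannot give a two-sided p below 0.1.

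**Figure D3:**
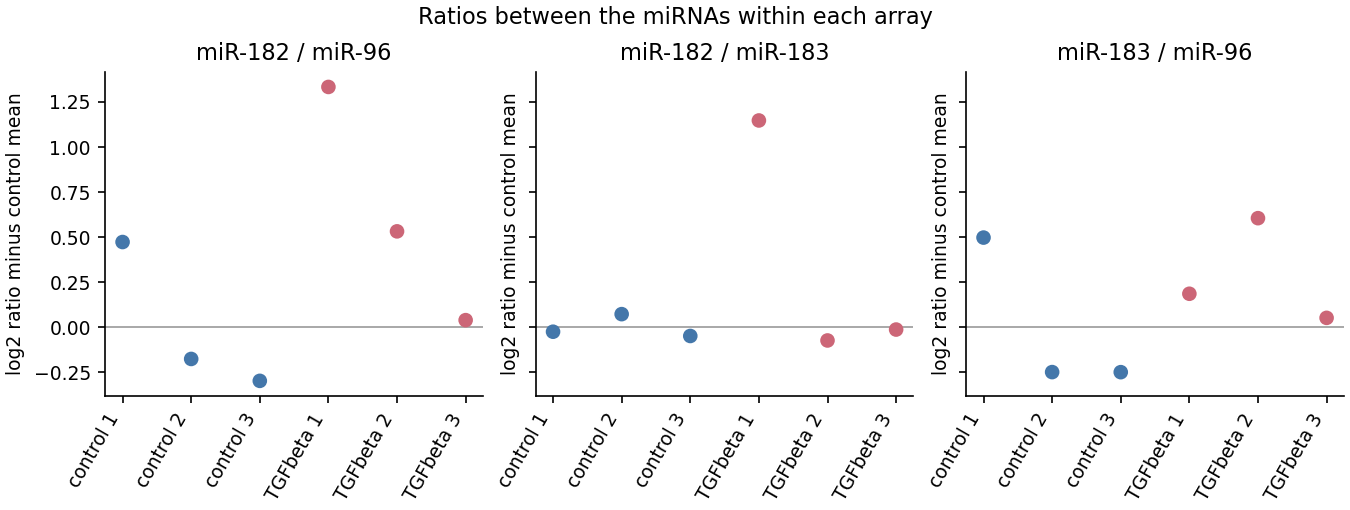
Log2 ratio between each pair of miRNAs on each array, minus its mean over the 3 controls (points; blue, control; red, TGFbeta). miR-182 over miR-183 lies between -0.073 and 0.073 on all arrays but TGFbeta 1 (1.15), whereas both ratios to miR-96 place control 1 among the TGFbeta arrays.

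Across the 6 arrays the members did not follow each other. As a description, Pearson's r of log2 signal was 0.096 between miR-183 and miR-96, -0.33 between miR-96 and miR-182, and -0.88 between miR-183 and miR-182. Without TGFbeta 1, where miR-182 was highest and miR-183 lowest, these were -0.53, 0.061 and 0.42 over 5 arrays, so the sign of each turned. The miRNAs whose values were most like those of miR-96 over the 6 arrays, among 83 compared, were miR-30a* (r = 0.97), miR-15a (0.95) and miR-26b (0.94). Their log2 differences were -0.60, -0.40 and -0.32, and a like direction follows from how they were chosen. For miR-183 the most alike were let-7e (0.96), miR-196a (0.94) and miR-674* (0.91). For miR-182 they were miR-29c (0.93), miR-1224 (0.92) and miR-494 (0.91).

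Other compact miRNA clusters were set beside this one for how far their members spread. Log2 differences over the 3 members here ran from -0.35 to 0.29, a range of 0.63. In the miR-106b cluster (miR-106b, miR-93 and miR-25) they ran from -0.0038 to 0.45, a range of 0.46, and in miR-23b, miR-27b and miR-24 from -0.63 to -0.23, a range of 0.40, with 3 of 3 lower. Without TGFbeta 1 the order of these ranges turned: the range was 0.33 here (-0.31 to 0.018), 0.52 in the miR-106b cluster (-0.20 to 0.32) and 0.50 in the miR-23b cluster (-0.77 to -0.27). Without control 1 those clusters had 0 of 3 and 3 of 3 members past the threshold, against 1 of 3 here and 36.5% of all miRNAs in that fit, so the count here is near the background. The median over the 3 members was -0.066 and over all 84 tested miRNAs -0.090. Whether the spread differs between clusters was not tested.

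The cluster's readings were not accompanied by those of other sensory or epithelial miRNAs. Of 9 sensory organ and neural miRNAs (among them miR-124, miR-9, miR-204 and miR-211) 0 were well above background on any array. The epithelial clusters of miR-200a, miR-200b and miR-429 and of miR-200c and miR-141 had 0 of 3 and 0 of 2 members above background. Of 9 miRNAs linked to TGFbeta or fibrosis, 5 were tested. The 5 were miR-21, miR-155, miR-29a, miR-29b and miR-29c. With all 6 arrays 5 of 5 read higher with TGFbeta, from 0.051 to 0.40, against 41.7% of the 84, and 0 passed. The miR-29 members are 1 family and not separate readings. The list sets no expected direction for its members, so this count is a description only. Without control 1, 1 of 5 passed, miR-29a (0.63, limma adjusted p = 0.0256), against 36.5% of all miRNAs in that fit. Without TGFbeta 1 the 5 ran from -0.080 to 0.33.

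**Figure D4:**
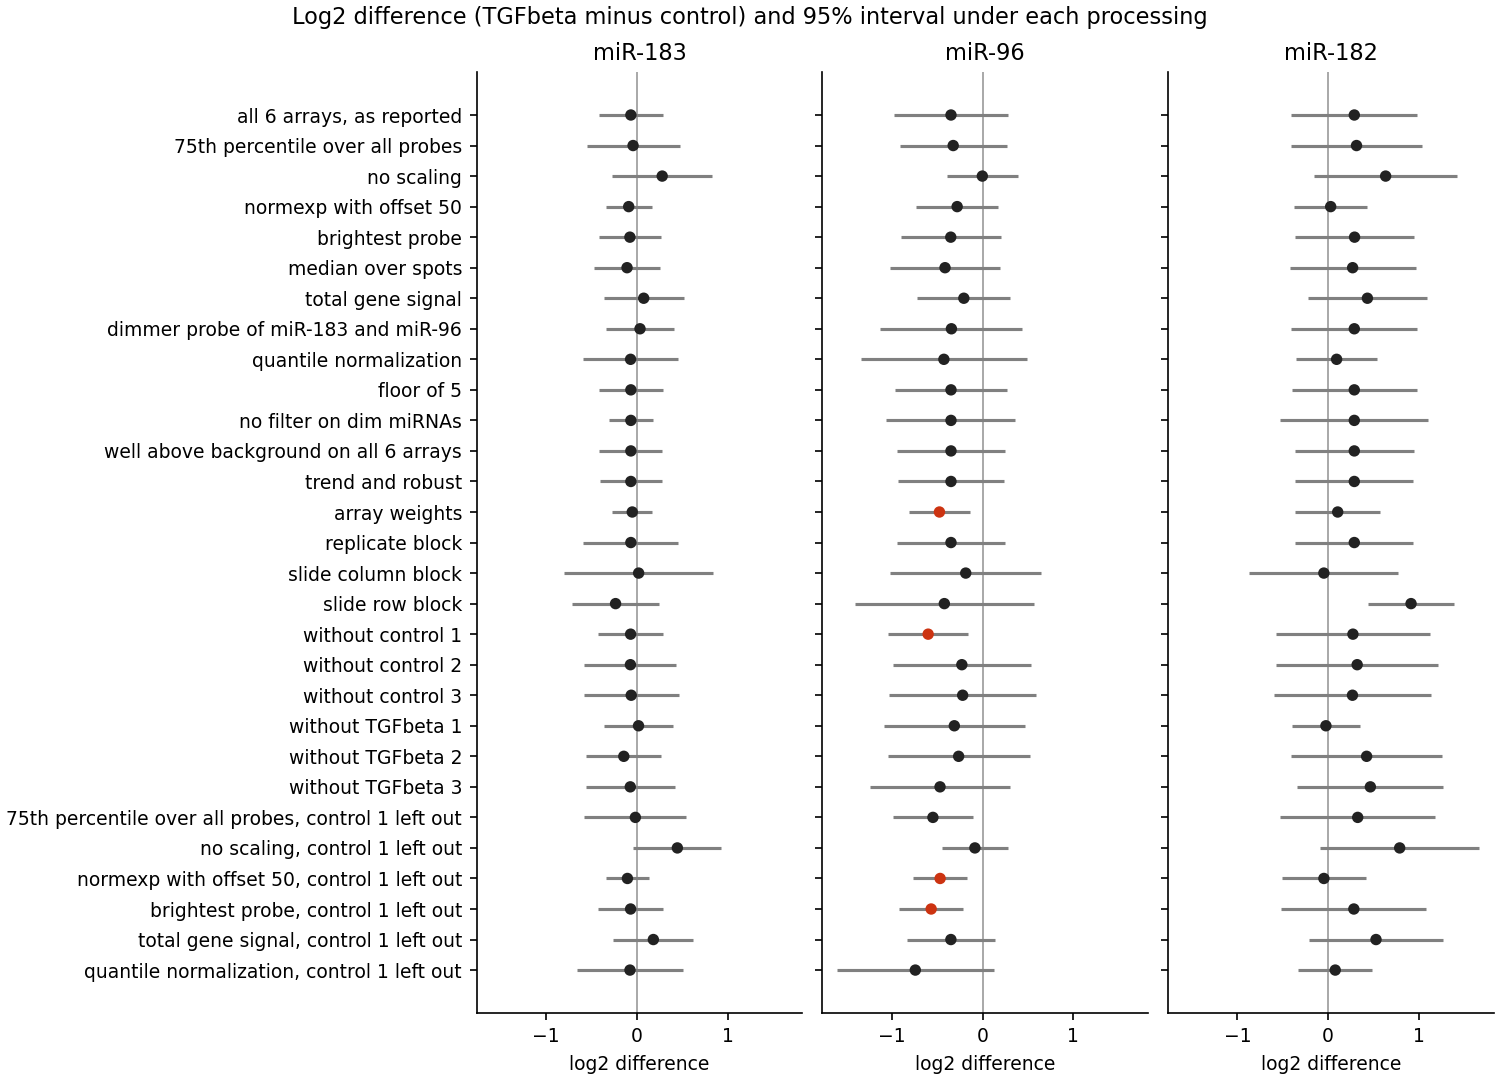
Log2 difference, TGFbeta minus control, of each miRNA under each processing (points, limma estimate; lines, 95% interval; red points, adjusted p under 0.05). Only miR-96 has red points, 4 in all, with array weights and in 3 fits without control 1; the miR-182 estimate falls to about 0 without TGFbeta 1.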

How the data were processed

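The authors deposited 1 scanner file per array, made with Agilent Feature Extraction (version 10.7.3.1 per the file headers, 10.1.1 per the submitters' processing notes), with background-subtracted spot intensity not scaled between arrays. Other deposited columns used included 0 or 1 flags, per the file headers, and, for alternative fits, the median spot signal and the total gene signal. The deposited value table held the same intensities (largest difference 0). No spot was saturated.

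Spots were averaged per probe without outlier-marked spots, and probes per miRNA. Arrays were scaled to a common 75th percentile of 105 probes, those that passed on every array (249.5 to 402.4 intensity units before scaling), floored at 1 and taken to log2. A miRNA was tested if well above background on all 3 arrays of a group (84 miRNAs), with limma 3.58.1 in R 4.3.3 (two-sided, Benjamini-Hochberg over all tested, threshold 0.05). The fit was also run on simulated data with the same noise on every array. These arrays are less even, so that run does not show how the fit behaves on them. The number of arrays limits the precision. Ratios used exact permutation tests. Figures used matplotlib 3.10.9 in Python 3.11.15.

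Deviations from the group means correlated between arrays of the same replicate number by 0.38, 0.37 and 0.52, each over the 0.1 set for pairing, although control 2 and TGFbeta 3, of unlike number, reached 0.385. The labels state no pairing. The main fits and tests are unpaired, with the number as a block an alternative. Normexp used median spot signal, as the mean was not used here, and an offset of 50. Named miRNAs are the members, the opposite arm, the 3 most correlated with each member, and the list members given. Members of other clusters and the tested miRNAs linked to TGFbeta or fibrosis were named after their values were seen. Members and lists were chosen with earlier results of these data known.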

Additional observations from a re-analysis of the deposited data

How the results depend on the processing

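Having 3 arrays a group limits what can be seen. miR-96 was read over background by both probes on 6 of 6 arrays, miR-183 by its brighter probe on 6 and its dimmer probe on 5, and miR-182 by 1 probe. Each member was above background on 6 arrays under 3 other definitions. The log2 difference of miR-96 ran from -0.74 to -0.0022 over 28 alternatives (limma adjusted p 0.0288 to nearly 1). These re-use the same arrays, and some cannot change the estimate. miR-96 passed with array weights (-0.47, adjusted p = 0.0288), which gave control 1 a weight of 0.144 but stopped short of convergence. Without control 1 it passed with the main processing (-0.60), normexp (-0.47) and the brightest probe (-0.57). It did not pass there with no scaling (-0.084), the 75th percentile over all probes (-0.55), total gene signal (-0.35) or quantile normalization (-0.74).

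miR-182 turned negative with the slide column as a block (-0.048), without TGFbeta 1 (-0.025) and with normexp without control 1 (-0.047), and its difference was 0.91 with the slide row as a block, where the TGFbeta side is TGFbeta 1 alone, so that this value restates the reading of that array. miR-183 turned positive without scaling (0.28), with total gene signal (0.075), the dimmer probe (0.035), the slide column block (0.019) and without TGFbeta 1 (0.018), and, without control 1, with no scaling (0.45) and total gene signal (0.18). With 1 array left out in turn, the log2 differences ran from -0.14 to 0.018 (miR-183), -0.60 to -0.22 (miR-96) and -0.025 to 0.46 (miR-182). The difference in mean signal of miR-183, -6.88 units, turned to 31.6 without scaling and 11.7 with total gene signal and ran from -15.1 to 2.29 over the left-out arrays; that of miR-182, 14.0 units, ran from -0.831 to 22.0. The changes of the ratios ran from 0.29 to 0.93 (miR-182 over miR-96), -0.043 to 0.57 (miR-182 over miR-183) and 0.12 to 0.53 (miR-183 over miR-96) over the left-out arrays. The causes were not tested, beyond the arrays named.

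The count of miRNAs past the threshold, 0 with all arrays, was 45 with array weights, 3 with the slide row block, 1 with the replicate block and 0 to 31 with 1 array left out. Without control 1 it was 9 with all probes, 20 with no scaling, 35 with normexp, 34 with the brightest probe, 25 with total gene signal and 9 with quantile normalization. The replicate block changed no call of a member (adjusted p = 0.890, 0.485 and 0.607 for miR-183, miR-96 and miR-182), and with pairs of the same number the exact p of the ratios was 0.25, 0.75 and 0.75 in the order above. The fits that combine control 1 left out with another choice, the dimmer probe, and the paired and left-out values of the ratios were chosen after seeing the data.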
